A study of Homo sapiens with 12 samples.

Results

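The effect of adding a spleen tyrosine kinase (SYK) inhibitor to cells already under bromodomain and extra-terminal (BET) inhibition was examined in SU-DHL-4, an established diffuse large B-cell lymphoma line of the germinal-centre B-cell type. The comparison sets 3 libraries exposed to entospletinib and AZD5153 together (Ento+AZD) against 3 libraries exposed to AZD5153 alone (AZD), 6 of the 12 libraries of the RNA-seq experiment, and describes every gene that passed the filter on low counts, 16835 of the 46863 genes counted (35.9%). Cells were kept for 72 h with 0.01 µM AZD5153, a bivalent BET inhibitor, or with the same concentration plus 1 µM entospletinib, a SYK inhibitor. The other 6 libraries, 3 with the vehicle DMSO and 3 with 1 µM entospletinib alone (Ento), served to show what each agent did by itself. The cells carried no engineered allele, every library came from the same line, and libraries carried the replicate numbers 1 to 3 in each group.

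BET proteins bind acetylated histones through their bromodomains and recruit the elongation machinery to active genes, so that their inhibitors lower the transcription of many genes that depend on strong enhancers. SYK is the tyrosine kinase next to the B-cell receptor: it passes the signal of the receptor on to phospholipase C, phosphatidylinositol 3-kinase and the NF-kB and ERK pathways. In germinal-centre lymphoma cells the receptor often signals tonically, without antigen, mainly through phosphatidylinositol 3-kinase, which keeps FOXO transcription factors out of the nucleus and feeds growth, glycolysis and cell division.

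Adding entospletinib to AZD changed 2001 genes at an adjusted p under 0.05 (11.9% of those tested), of which 985 were higher (5.85%) and 1016 were lower (6.04%). With a change of more than 2-fold required as well (differentially expressed genes, DEGs), 282 genes remained (1.68%), of which 211 were higher (1.25%) and 71 lower (0.422%). The B-cell regulator BACH2 was among those that rose, as were S1PR1, S1PR4 and GPR183, positioning receptors of low abundance. At the adjusted p, 5 of 17 tested positioning receptors rose and 2 fell. Of the genes of DNA replication, mitosis and glycolysis 38 of 48, 25 of 44 and 17 of 27 fell, mostly by less than 2-fold, and none rose. AZD alone had already lowered 25, 40 and 1 of the genes of these lists against DMSO. Of the 537 genes that AZD had changed by more than 2-fold, 44 (8.19%) moved back by more than 2-fold. Both comparisons share the AZD libraries, which favours such reversals. At the adjusted p alone, 438 of the 3745 genes changed by AZD were taken further and 251 were reversed. All 282 DEGs moved the same way in each of the 3 pairs of libraries with the same replicate number. They were selected from these same pairs, so that this agreement is no separate support. The calls came from edgeR's quasi-likelihood test with the replicate number as a block. Without that block 11 DEGs were called, and without the 4 libraries of replicate 1 there were 78.

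The libraries held 18121993 to 24675830 counted reads. Each of the 8 B-lineage markers (among them MS4A1, CD79A, CD79B and PAX5) passed the filter, with a summed level of 6030 to 8480 CPM (counts scaled by library size) with AZD and 6500 to 8330 CPM with Ento+AZD. Of 5 T-cell markers only CD3E passed, and the list summed to 0.588 to 0.823 CPM with AZD and 0.81 to 0.959 CPM with Ento+AZD. No myeloid marker of 5 passed (0.194 to 0.481 and 0.245 to 0.395 CPM), and of 6 epithelial and stromal markers only DCN did (37 to 75.8 and 38.2 to 68.2 CPM). Fewer dividing cells and less RNA of a gene in each cell cannot be told apart in such bulk samples.

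Among the genes that rose, BACH2, a transcriptional repressor that keeps B cells from becoming plasma cells, had the smallest p. Its level was 88.4, 122 and 58.5 CPM in AZD replicates 1, 2 and 3 and 292, 350 and 220 CPM with Ento+AZD. The groups did not overlap, and the rise was 1.71 ± 0.10 on the log2 scale (SE, adjusted p = 8.83e-07). This call was lost when the replicate number was left out of the model. Entospletinib alone had raised BACH2 by 1.36 over DMSO (adjusted p = 4.82e-06), from 98.4, 156 and 91.6 CPM to 290, 351 and 236 CPM, so that the levels of both entospletinib groups overlapped. BACH2 lies on chromosome 6 (89926528 to 90296843, minus strand, GRCh38) and shares exonic sequence with an unnamed gene on the other strand, which cannot be separated because the strand setting of the counting is not given.

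AIM2, KANK2 and AFF3 showed the same steady rise. AIM2, a sensor of cytosolic DNA, went from 58.9, 66.8 and 50.8 CPM with AZD to 124, 142 and 120 CPM with Ento+AZD (log2 fold change 1.13 ± 0.08, adjusted p = 6.43e-06). KANK2, an adaptor of the actin cytoskeleton, went from 107, 92.4 and 88.4 CPM to 237, 290 and 224 CPM (1.38 ± 0.10, adjusted p = 6.43e-06). AFF3, a lymphoid nuclear factor of the family that scaffolds elongation complexes, rose by 1.02 ± 0.08 (adjusted p = 6.43e-06), with levels of 44, 59.4 and 28.8 CPM against 84.6, 121 and 62.1 CPM. In none of these genes did the AZD and Ento+AZD libraries overlap. The zinc transporter SLC30A4 rose from 4.76, 3.95 and 2.32 CPM to 16.1, 22.7 and 12.5 CPM (2.21 ± 0.17, adjusted p = 1.07e-05). Its exons overlap those of an antisense gene, SLC30A4-AS1.

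The largest rises were found in genes of low abundance. LINC01781, a long non-coding RNA, held at most 3 counts in any AZD library, and its mean of 1.34 CPM with Ento+AZD was at least 9.28-fold higher than the level of 3 counts per library. TRIM55, a ubiquitin ligase known from muscle, rose from 1.05, 0.641 and 0.387 CPM to 4.94, 6.91 and 3.22 CPM (2.88 ± 0.39, adjusted p = 8.20e-04). TMPRSS15 (enteropeptidase), EPB41L1 (a membrane cytoskeleton protein), SDR16C5 (a retinol dehydrogenase) and the uncharacterised LOC105374855 and LOC105373239 rose by 2.26 to 2.67 on the log2 scale. In EPB41L1, LOC105373239 and TMPRSS15 replicate 3 had the lowest level in both groups, and the AZD and Ento+AZD ranges overlapped for LOC105373239 and for TMPRSS15, the latter with 0.0484 to 1.34 CPM against 0.846 to 6.67 CPM.

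The steepest decrease was that of SLAMF1 (CD150), a co-receptor on lymphocytes. It stood at 3.96, 2.46 and 4.74 CPM with AZD and at 0.685, 0.334 and 0.282 CPM with Ento+AZD, without overlap (log2 fold change −3.03 ± 0.39, adjusted p = 6.19e-04). SLC8A1, a sodium-calcium exchanger, fell from 6.57, 4.54 and 8.56 CPM to 1.86, 1.29 and 1.81 CPM (−1.97 ± 0.19, adjusted p = 9.92e-05). DENND1B, which activates a Rab protein of endocytic traffic, fell from 7.92, 5.13 and 12 CPM to 2.64, 2.48 and 3.1 CPM (−1.55 ± 0.18, adjusted p = 3.67e-04). In all these genes every Ento+AZD library lay below every AZD library.

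HDAC9, a class IIa histone deacetylase (−1.44), ADSS1, an enzyme of AMP synthesis (−1.55), LRRTM4, a synaptic adhesion protein (−1.61), LINC02338 (−1.65), a non-coding RNA, and FSD2, a muscle protein (−1.10), fell past the test as well. DDIT4, an inhibitor of mTORC1 induced by stress and hypoxia, fell by 1.49 on the log2 scale (adjusted p = 0.00449), from 327, 69.7 and 96.3 CPM to 54.2, 44.6 and 46.9 CPM, with AZD replicate 1 far above the other two. MIR210HG, the host transcript of the hypoxia microRNA miR-210, was high in AZD replicates 1 and 3 and low in replicate 2. It stood at 19.1, 2.67 and 13.8 CPM with AZD against 1.66, 2.24 and 5.02 CPM with Ento+AZD, a change of −2.08 (adjusted p = 0.0305). The ranges of both groups overlapped, and replicate 2 moved least. Without AZD replicate 1 the call of MIR210HG was lost, as it was without Ento+AZD replicate 1 or 3 (highest adjusted p = 0.145), while DDIT4 passed the adjusted p in every fit that left out 1 library (highest adjusted p = 0.0337). Its change ranged from −1.78 to −0.94 over those fits, and the latter value, short of 2-fold, was that without AZD replicate 1. WSB2, a substrate receptor of ubiquitin ligases whose exons overlap RFC5 on the other strand, fell by 1.52 on the log2 scale and lost its call without replicate 1 of either group (highest adjusted p = 0.0807).

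The 282 DEGs were then read in the comparison of Ento with DMSO, which shares no library with that of Ento+AZD and AZD, although the libraries carry the same replicate numbers. Of the 211 DEGs that rose, 114 (54%) had also risen past the test with Ento alone, where 4.66% of all genes did. Of the 71 that fell, 33 (46.5%) had fallen past the test with Ento alone, against 3.66% of all genes. The fitted change had the same sign for 200 of 211 and 67 of 71. Across all 16835 genes, which are not independent replicates, the 2 sets of log2 fold changes had a Pearson r of 0.569 and a Spearman rho of 0.493.

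**Figure D1:**
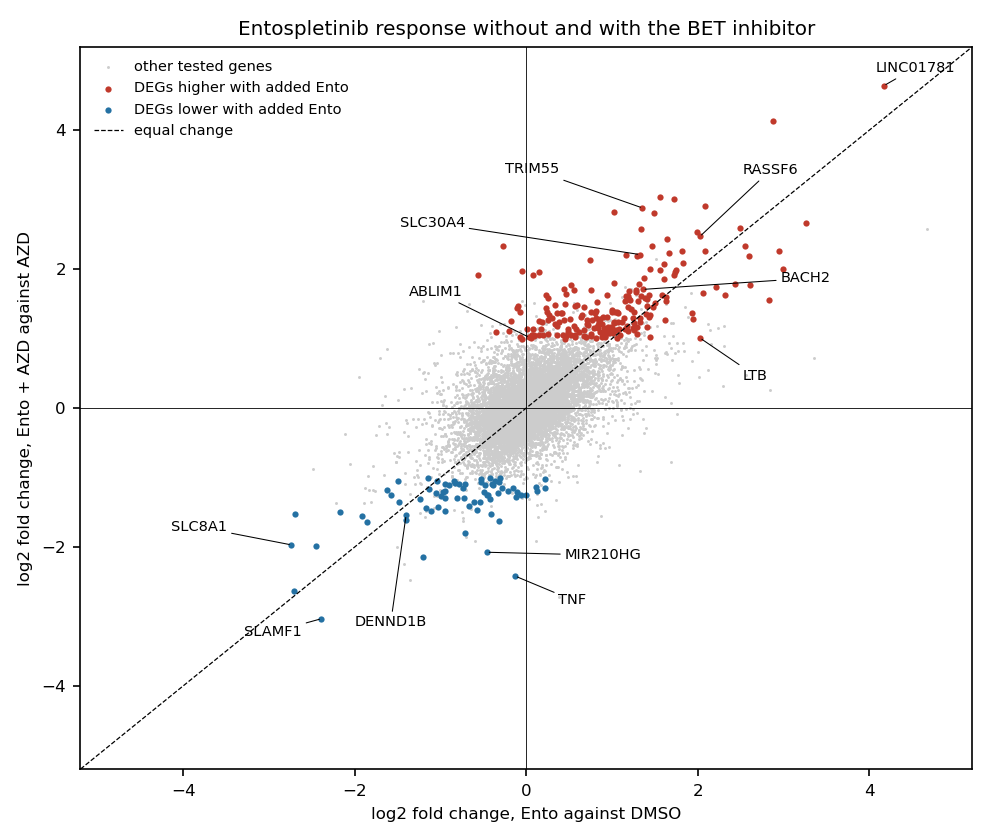
Each point is 1 of the 16835 tested genes, with its log2 fold change of Ento against DMSO on the horizontal axis and of Ento+AZD against AZD on the vertical axis; red and blue mark the 211 DEGs higher and 71 DEGs lower with added entospletinib, and the dashed line marks equal change. Most coloured points lie in the quadrants of shared direction, with LINC01781, BACH2 and SLAMF1 near the line, while ABLIM1 and TNF lie near 0 on the horizontal axis.

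Whether entospletinib acted differently once BET proteins were inhibited was tested by the interaction of both agents. No gene passed an adjusted p of 0.05 in edgeR (smallest 0.444), 1652 (9.81%) had an unadjusted p under 0.05, and DESeq2 called 8. The fit without DMSO replicate 2 called 213 genes and that without a filter on low counts 278, a fit in which edgeR gave all genes 1 trended spread in place of their own. The interaction count therefore rested on the settings, and the 5 genes with the smallest p are given as values.

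ABLIM1, an actin-binding LIM protein, was the first of them (edgeR's adjusted p of the interaction = 0.444). It stood at 183, 167 and 201 CPM with DMSO, at 201, 186 and 180 CPM with Ento, at 93.7, 82.2 and 68 CPM with AZD and at 162, 195 and 137 CPM with Ento+AZD. Entospletinib shifted it by 0.03 without AZD (adjusted p = 0.891) and raised it by 1.02 ± 0.12 on top of AZD (adjusted p = 3.71e-04). CREM, a transcription factor of the cAMP pathway whose exons overlap CUL2, showed the mirror image: 35.9, 29 and 32.7 CPM with DMSO, 54.1, 42.6 and 61 CPM with AZD and 33.4, 25.6 and 32 CPM with Ento+AZD, a change of −0.79 on top of AZD (adjusted p = 4.38e-04).

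In the remaining genes the fitted response was larger without AZD. LTB, the lymphotoxin subunit made by B cells, rose by 2.03 with Ento alone (adjusted p = 4.82e-06) and by 1.01 when entospletinib was added to AZD (adjusted p = 0.00146). ABCA6, a lipid transporter, rose by 1.84 (adjusted p = 6.33e-06) and by 0.83 (adjusted p = 0.00416). IGLC3, an immunoglobulin lambda constant gene with near-identical neighbours, so that its reads are uncertain, rose by 2.56 with Ento alone (adjusted p = 2.71e-04), whereas its difference of 0.47 between Ento+AZD and AZD did not pass (adjusted p = 0.286).

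AZD alone had changed 537 genes by more than 2-fold, 426 lower and 111 higher (2.53% and 0.659% of genes). Adding entospletinib raised 38 of the 426 (8.92%) and lowered 6 of the 111 (5.41%) by more than 2-fold, where 1.25% of all genes rose and 0.422% fell by as much. Both comparisons use the same 3 AZD libraries, so that chance deviations of these libraries push the 2 fold changes in opposite directions, and the counts describe the genes without testing them. At the adjusted p alone, 190 of the 2134 genes lowered by AZD (12.7% of genes) rose, or 8.9% against 5.85% of all genes, and 61 of the 1611 raised by AZD (9.57%) fell, or 3.79% against 6.04%. More genes moved further in the direction AZD had taken them: 297 of the 2134 fell (13.9%) and 141 of the 1611 rose (8.75%). In all, 438 of 3745 genes were taken further and 251 reversed at the adjusted p, whereas beyond 2-fold 18 were taken further and 44 reversed. Of the 44 reversed DEGs, 22 (50%) had moved the same way past the test with Ento alone, and 0 had moved the opposite way. With Ento alone 4.66% of all genes rose and 3.66% fell. A reversal is thus a return of the level, and in those 22 genes entospletinib also acted without AZD.

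RASSF6, a Ras-association protein linked to apoptosis and Hippo signalling, ranked first among the reversed genes with a mean of at least 1 CPM by the smaller of its changes in the 2 comparisons. It lay at 7.23, 7.51 and 11.3 CPM with DMSO, fell to 1.85, 1.02 and 1.31 CPM with AZD and returned to 6.16, 8.1 and 9.31 CPM with Ento+AZD. The change with AZD was −2.59 (adjusted p = 1.13e-04) and that with added entospletinib 2.47 ± 0.28 (adjusted p = 3.18e-04), and Ento+AZD differed from DMSO by −0.12 (adjusted p = 0.694). Entospletinib alone brought the gene to 28.3, 22.5 and 60.6 CPM, above all other groups. The gene lies on chromosome 4 (73571550 to 73620631, minus strand, GRCh38), and the 120 bases before its start in RefSeq (GRCh38.p14, chr4:73620632-73620751, minus strand) hold a forkhead motif, GTAAACA, which is shown in capitals because S1PR1 and other FOXO targets were among the genes that rose.

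RASSF6: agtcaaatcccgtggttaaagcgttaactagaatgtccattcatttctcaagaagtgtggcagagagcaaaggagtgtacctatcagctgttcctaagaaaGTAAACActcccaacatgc

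This heptamer, searched on both strands of windows from 250 bases before to 50 bases after the RefSeq start, was found for 11 of 129 DEGs that rose and have such a window (8.53%) and 3 of 49 that fell (6.12%), against 3.54% of all tested genes with a window and 4.19% of all 27305 genes in the RefSeq table. The match is a stretch of letters and does not show that a factor binds there.

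FCMR, the Fc receptor for IgM, gave a similar picture. It fell from 3.06, 1.88 and 1.53 CPM with DMSO to 0.801, 0.909 and 0.435 CPM with AZD and rose to 3.03, 5 and 1.92 CPM with Ento+AZD (2.19 ± 0.29, adjusted p = 6.78e-04). TRIM55 moved from 4.49, 1.74 and 1.49 CPM with DMSO down to at most 1.05 CPM with AZD and, with Ento+AZD, differed from DMSO by 1.04 (adjusted p = 0.0166). Both genes were also higher with Ento alone. FCMR had 125, 135 and 81 raw counts with Ento against 77, 41 and 39 with DMSO. TRIM55 had 187, 86 and 134 against 113, 38 and 38. GFI1B, a repressor of blood cell development, recovered in part: from 5.29, 6 and 2.08 CPM it fell to 0.59, 0.855 and 0.29 CPM and reached 1.66, 2.24 and 0.959 CPM with both agents, a difference of −1.43 from DMSO (adjusted p = 1.09e-04). The exons of FCMR overlap IL24 and those of GFI1B overlap TSC1 on the other strand.

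IGF1R, the receptor of insulin-like growth factor 1, showed no change with Ento alone that passed the test (0.15, adjusted p = 0.717). It stood at 1.83, 2.02 and 2.83 CPM with DMSO, 1.05, 0.855 and 0.726 CPM with AZD and 1.57, 2.48 and 2.37 CPM with Ento+AZD (1.25 ± 0.26, adjusted p = 0.00890). CDHR1, a photoreceptor cadherin, DAPK2, a calmodulin-dependent death-associated kinase, FLT3LG, the ligand of the FLT3 receptor, BAIAP3, a protein of vesicle release, and the uncharacterised LOC105374339 rose by 1.25 to 1.72 on the log2 scale. Their calls were less firm: leaving out single libraries ended that of CDHR1 in 1 of 12 fits, of BAIAP3 in 3, of DAPK2 in 4, of FLT3LG in 6 and of LOC105374339 in 8. The calls of RASSF6, S1PR4, TRIM55, FCMR, GFI1B and IGF1R held in all 12.

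In the opposite direction, genes that AZD had raised fell back. MYOM2, a protein of the muscle M-band, went from 18.6, 29.3 and 25.2 CPM with DMSO to 44.2, 65.2 and 58.7 CPM with AZD and to 28.8, 24.2 and 19.6 CPM with Ento+AZD (−1.20 ± 0.19, adjusted p = 0.00224). LMO2, a LIM-domain adaptor that marks germinal-centre B cells, went from 16.3, 23.8 and 4.91 CPM to 26.1, 60 and 29.8 CPM and then to 15.2, 17.2 and 12.5 CPM (−1.29 ± 0.33, adjusted p = 0.0227). The AZD and Ento+AZD ranges did not overlap for either gene, but the call of LMO2 was lost in 4 of 12 fits without 1 library (highest adjusted p = 0.114) and with DESeq2.

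SLAMF1 was raised by AZD from 0.954, 1.19 and 3.06 CPM (1.14, adjusted p = 0.0161) and ended below DMSO with both agents (−1.89, adjusted p = 0.00294). Without AZD it was also lower with entospletinib, at 6, 8 and 6 raw counts against 24, 26 and 78 with DMSO. The non-coding LINC02338 rose with AZD by 1.15 (adjusted p = 0.00473) and fell by 1.65 on the log2 scale with added entospletinib (adjusted p = 0.00224). Ento alone left it at 4, 11 and 3 raw counts against 20, 28 and 25 with DMSO, and MYOM2 at 325, 323 and 165 against 468, 639 and 642. TNF, the inflammatory cytokine, stood at 0.636, 0.504 and 0.668 CPM with DMSO, 1.6, 1.02 and 1.55 CPM with AZD and 0.391, 0.0953 and 0.282 CPM with Ento+AZD (−2.42 ± 0.37, adjusted p = 0.00181). Entospletinib alone left TNF at 0.378, 0.563 and 0.737 CPM, a difference of −0.13 from DMSO that did not pass (adjusted p = 0.858). The sixth gene was the creatine transporter SLC6A8, named after its values were seen, at 1.1, 1.12 and 1.26 CPM with AZD.

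**Figure D2:**
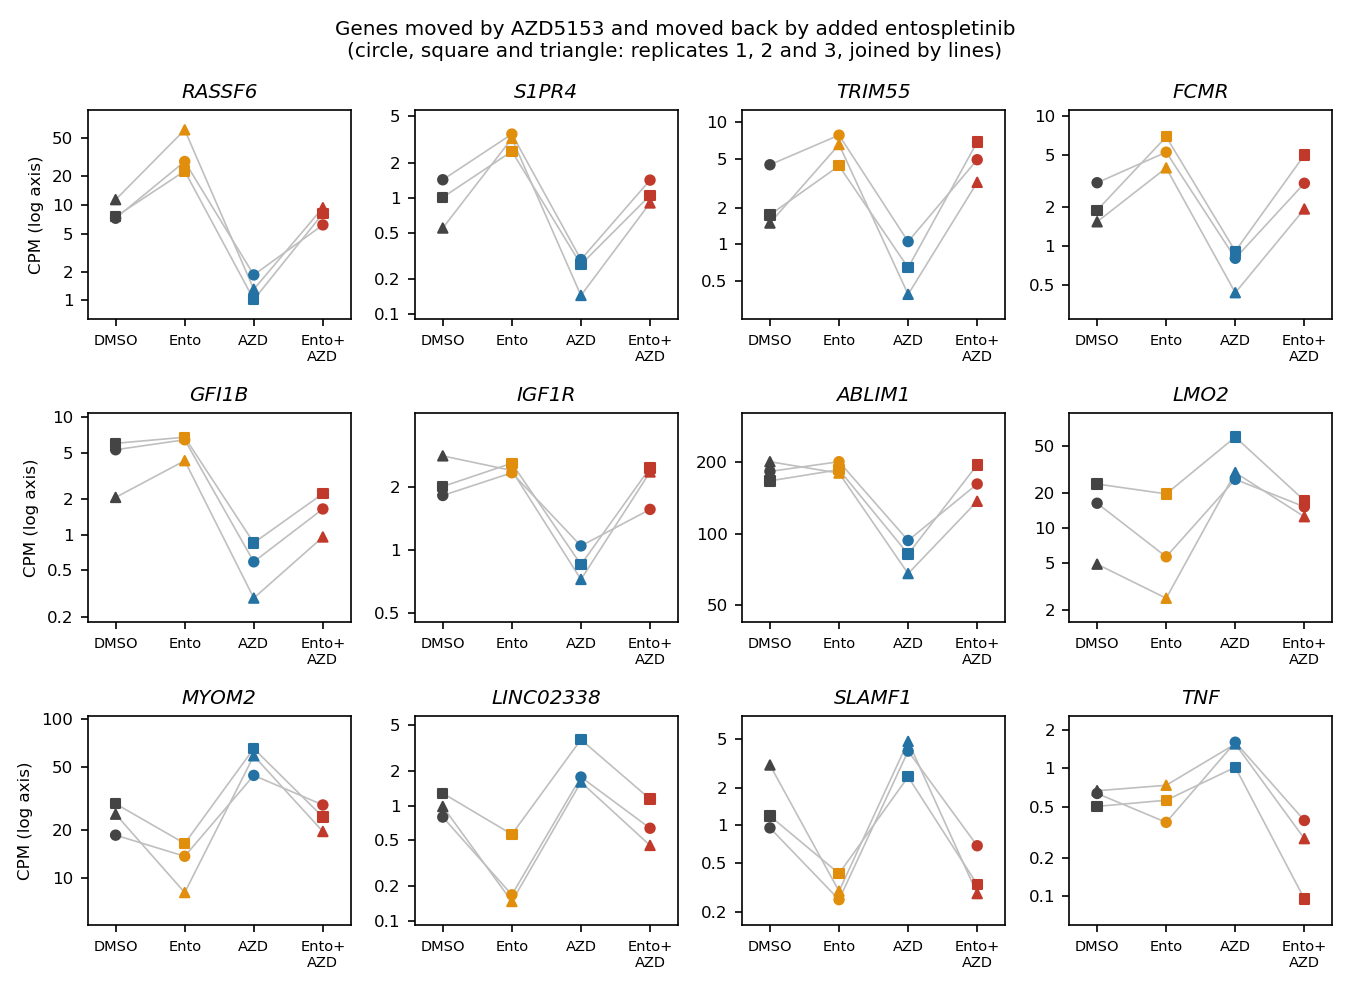
CPM on a log axis of 12 genes in the DMSO, Ento, AZD and Ento+AZD libraries, with circles, squares and triangles for replicates 1, 2 and 3 and grey lines joining libraries of the same number. RASSF6, S1PR4, TRIM55, FCMR, GFI1B, IGF1R and ABLIM1 dip with AZD and rise again with Ento+AZD, while LMO2, MYOM2, LINC02338, SLAMF1 and TNF peak with AZD.

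Other AZD effects were taken further. Here 18 genes moved by more than 2-fold in the same direction in both comparisons, again with shared AZD libraries, which in this case work against the pattern. They were 11 of the 426 genes lowered by AZD (2.58%) and 7 of the 111 raised by it (6.31%). Of all genes 0.422% fell and 1.25% rose by as much. HSPB1, a small heat-shock protein, fell from 12.4, 10.8 and 11.7 CPM with DMSO to 5.44, 4.01 and 4.69 CPM with AZD and to 2.54, 1.91 and 1.24 CPM with Ento+AZD (−1.30 ± 0.18, adjusted p = 0.00113). With entospletinib alone HSPB1 changed by −1.24 (adjusted p = 2.70e-04). UBASH3B, a phosphatase that acts on SYK itself, fell from 2.34, 2.02 and 3.06 CPM to 0.843, 0.695 and 0.871 CPM and to 0.342, 0.286 and 0.338 CPM (−1.30 ± 0.30, adjusted p = 0.0154), and its call was lost without AZD replicate 1 or Ento+AZD replicate 3 (highest adjusted p = 0.0791).

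LRRCC1, a centrosomal protein, fell by 1.27 on the log2 scale with added entospletinib (adjusted p = 0.00206) after a change of −1.08 with AZD, and the pseudogene LOC100419170 by 1.07, a call that 8 of 12 fits without 1 library lost. Rising genes of this kind were LOC107984282, LOC105372708, LOC105371493, FOXP1-AS1, IQCN and TRPV1, with additions of 1.03 to 1.52 on the log2 scale. Of 12 fits without 1 library, LOC105371493 lost its call in 2 (highest adjusted p = 0.0779) and IQCN in 1 (highest adjusted p = 0.0507). TRPV1, the capsaicin channel, shares exons on its own strand with SHPK and differed widely between replicate numbers, at 4.97, 28.1 and 6.1 CPM with AZD and 21.3, 42.9 and 16.3 CPM with Ento+AZD (1.26 ± 0.24, adjusted p = 0.00553). The antisense FOXP1-AS1 lost its call without AZD or Ento+AZD replicate 1 (highest adjusted p = 0.0937).

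Genes of DNA replication moved uniformly in direction, as did those of mitosis described below. Of 48 genes, which load and fire replication origins, synthesise DNA or supply nucleotides, 38 fell past the test, none rose, and all 48 had a negative fitted change, where 6.04% of all genes fell. Their median was −0.59 on the log2 scale, against −0.002 over all genes tested. The 4 that fell by more than 2-fold were MCM10, which helps to open origins (−1.15), CDT1, which loads the MCM helicase (−1.10), RRM2, the small subunit of ribonucleotide reductase (−1.06), and POLE2, a subunit of the leading-strand polymerase (−1.05). AZD alone had already lowered 25 of the 48 genes past the test and raised 0, with a median of −0.499 against DMSO. Of all genes, AZD lowered 12.7%.

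CDT1 stood at 61.7, 53.5 and 124 CPM with DMSO, 44.2, 16.3 and 44.7 CPM with AZD and 19.1, 5.53 and 27.6 CPM with Ento+AZD. Replicate 2 was the lowest in each of these groups, so that the AZD and Ento+AZD ranges overlapped although each pair showed the fall (SE 0.22, adjusted p = 0.00668). E2F2, an activator of such genes, fell from 74.8, 32.1 and 70.1 CPM to 37.9, 10.7 and 44.3 CPM (−1.01 ± 0.24, adjusted p = 0.0163), and E2F8 fell by 1.01 on the log2 scale (adjusted p = 0.0329). Of 25 regulators of G1 and E2F tested 7 fell and none rose, CDK2, CCNE2, RBL1, CDK4 and CCNE1 being the others, with a list median of −0.23.

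E2F factors bind a short GC-rich motif, and the promoters of CDT1 (chr16:88803669-88803788, plus strand) and E2F2 (chr1:23531234-23531353, minus strand; both RefSeq, GRCh38.p14, the 120 bases before the start) are shown with it in capitals because the windows of many replication genes held it. The letters searched were TTTGGCGC and TTTCCCGC on both strands.

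CDT1: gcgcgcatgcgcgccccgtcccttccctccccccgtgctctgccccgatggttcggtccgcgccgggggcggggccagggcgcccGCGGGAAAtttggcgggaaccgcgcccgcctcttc

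E2F2: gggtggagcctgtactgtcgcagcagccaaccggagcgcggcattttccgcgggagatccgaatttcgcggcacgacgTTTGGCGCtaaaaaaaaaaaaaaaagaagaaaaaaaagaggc

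One of these octamers lay in the window of 19 of 41 replication genes with a window (46.3%), 2 of 39 mitosis genes (5.13%), 4.54% of all tested genes and 2.75% of all genes in the RefSeq table. Of the DEGs with a window, 5 of 49 that fell (10.2%) and 2 of 129 that rose (1.55%) held one. The replication genes were listed by function, so that their share describes the list and not the response to entospletinib. Whether E2F factors acted on these genes was not tested. In CDT1 the match reads in reverse and begins 35 bases before the start, and in E2F2 it begins 42 bases before it.

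Of 44 genes of mitosis 25 fell and none rose, and all 44 had a negative fitted change, with a median of −0.62. The list held CDK1 (−0.86 ± 0.17, adjusted p = 0.00760), its cyclin CCNA2 (−0.84 ± 0.21, adjusted p = 0.0214) and SPC25 of the kinetochore (−0.86 ± 0.19, adjusted p = 0.0124). None of the mitosis genes fell by more than 2-fold. CDK1 stood at 134, 57 and 110 CPM with AZD and 72.3, 22.6 and 81.6 CPM with Ento+AZD, and each pair fell. AZD alone had changed CDK1 by −0.81 from DMSO (adjusted p = 0.00479). It had lowered 40 of the 44 mitosis genes past the test and raised 0, with a median of −0.751, where 12.7% of all genes fell.

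The counts of Ento+AZD against AZD in both lists rested on single libraries more than the direction did. Without AZD replicate 1 the test called 3 replication and 4 mitosis genes, and without replicate 1 of all groups 1 and 0. In the 3 pairs the list medians were −0.633, −0.739 and −0.355 for replication and −0.687, −0.898 and −0.266 for mitosis. With Ento alone against DMSO, replicate 2 gave −0.639 and −0.965, whereas replicates 1 and 3 lay between −0.073 and 0.155, and 2 genes of each list fell past the test. The 16 replication-dependent histone genes tested, whose transcripts mostly lack a poly(A) tail and are poorly caught by this library type, included none past the test in either direction.

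**Figure D3:**
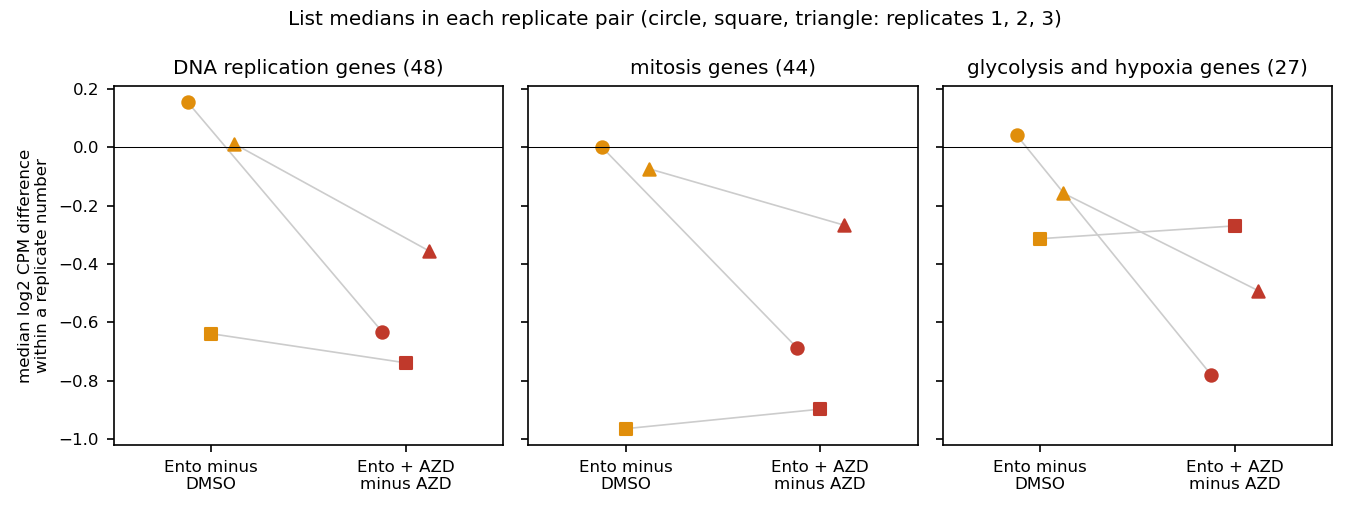
Median difference in log2 CPM over the members of 3 gene lists within each replicate number, for Ento minus DMSO (orange) and Ento+AZD minus AZD (red), with circles, squares and triangles for replicates 1, 2 and 3. All 9 red points lie below 0, from −0.266 to −0.898; the orange points of replication and mitosis are near 0 for replicates 1 and 3 and low for replicate 2.

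Of 27 tested genes of glycolysis and the response to hypoxia 17 fell and none rose with added entospletinib, with a list median of −0.55. With Ento alone no gene of the list passed the test in either direction (median −0.12), and with AZD alone 4 rose and 1 fell (median 0.08). The members were spread along the pathway: hexokinases HK2 and HK1, GPI, PFKP, ALDOA, TPI1, GAPDH, PGK1, PGAM1, ENO1 and PKM of glycolysis, LDHA and LDHB, which interconvert pyruvate and lactate, PDK1, which holds pyruvate back from mitochondria, and the lactate exporter SLC16A3.

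LDHA stood at 632, 763 and 1040 CPM with DMSO, 759, 565 and 1080 CPM with Ento, 1190, 733 and 1310 CPM with AZD and 560, 383 and 808 CPM with Ento+AZD. It fell by 0.91 on the log2 scale (SE 0.14, adjusted p = 0.00187) and in each pair, while the ranges of AZD and Ento+AZD overlapped. SLC16A3 fell from 12.1, 3.79 and 10.1 CPM to 3.23, 3.34 and 4.01 CPM (−1.26 ± 0.32, adjusted p = 0.0233) and BNIP3, a mitophagy receptor, from 72.2, 24.6 and 64.8 CPM to 23.6, 15.7 and 29.4 CPM (−1.19 ± 0.28, adjusted p = 0.0154). In both genes replicate 2 was already low with AZD and moved least. The vehicle libraries also differed widely, with replicate 3 the highest. With DMSO, SLC16A3 had 150, 163 and 457 raw counts and BNIP3 714, 591 and 2487. VEGFA, the angiogenic factor, fell by 0.71 on the log2 scale (adjusted p = 0.0433), PGAM1 by 0.74 (adjusted p = 0.00152) and PGK1 by 0.65 (adjusted p = 0.00613). Without AZD replicate 1 or Ento+AZD replicate 1 the list count was 8, and the pair medians were −0.781, −0.269 and −0.491.

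The promoters of LDHA (chr11:18394353-18394562, plus strand) and BNIP3 (chr10:131981924-131982133, minus strand), 210 bases before the start in RefSeq (GRCh38.p14), are given because they carry the core of the hypoxia response element, searched as ACGTGC on both strands and set in capitals.

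LDHA: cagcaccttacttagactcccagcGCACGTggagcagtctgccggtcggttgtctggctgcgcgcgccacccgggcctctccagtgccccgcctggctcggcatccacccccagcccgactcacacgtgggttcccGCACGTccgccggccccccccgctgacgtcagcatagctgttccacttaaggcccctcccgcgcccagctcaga

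BNIP3: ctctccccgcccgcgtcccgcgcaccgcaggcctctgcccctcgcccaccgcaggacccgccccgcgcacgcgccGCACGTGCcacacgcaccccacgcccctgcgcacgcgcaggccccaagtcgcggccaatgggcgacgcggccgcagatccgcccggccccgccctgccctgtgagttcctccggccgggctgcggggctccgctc

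LDHA has 2 separate matches, and in BNIP3 the 2 matches overlap as a palindrome. Of 24 genes of the list with a window 9 held the hexamer (37.5%), against 11.2% of the tested genes and 8.33% of all genes in that table. The hexamer occurred in 7 of 39 mitosis genes (17.9%) and 5 of 41 replication genes (12.2%). Of the DEGs with a window, 7 of 49 that fell (14.3%) and 9 of 129 that rose (6.98%) held it. Because the list includes genes of the response to hypoxia by choice, its share describes the list and not the response to entospletinib. Whether a factor binds these matches was not tested.

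Of 17 tested receptors that place B cells in lymphoid tissue 5 rose and 2, the integrin chains ITGA4 and ITGAL, fell. Over all genes 5.85% rose and 6.04% fell, the shares against which this count and those of the lists that follow are to be read. The list median was 0.20, and 3 of the genes were DEGs. S1PR4 and S1PR1, receptors for the lipid that draws lymphocytes out of tissue, rose by 2.23 ± 0.38 and 1.99 ± 0.50 (adjusted p = 0.00325 and 0.0220). S1PR4 lay at 0.295, 0.267 and 0.145 CPM with AZD and 1.42, 1.05 and 0.903 CPM with Ento+AZD. S1PR1 was scarce, at 0.0968 to 0.169 CPM against 0.226 to 0.88 CPM.

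GPR183 (EBI2), the oxysterol receptor that keeps B cells outside the germinal centre, rose by 2.20 ± 0.46 (adjusted p = 0.00921), from 0.632, 0.641 and 0.387 CPM to 5.63, 1.67 and 0.846 CPM, with a wide spread among the Ento+AZD libraries. The chemokine receptors CXCR4 and CXCR5 rose by 0.72 and 0.66 (adjusted p = 0.0148 and 0.00591). AZD alone had lowered both (−0.73 and −0.56), and with Ento+AZD they differed from DMSO by −0.004 and 0.10 (adjusted p = 0.989 and 0.547). Among 21 FOXO factors and targets, 6 rose (S1PR1, PIK3IP1, GADD45A, KLHL24, CCNG2 and PDCD4) and IL7R, the interleukin-7 receptor, fell by 1.31 on the log2 scale (adjusted p = 0.0105).

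Of 47 genes of the B-cell receptor pathway itself 9 rose and 2 fell, with no DEG and a median of 0.16. CD79A and CD79B, the signalling chains of the receptor, rose by 0.41 and 0.53, SYK, the target of entospletinib, by 0.41, the kinase BLK by 0.57 and the receptor-like FCRL3 by 0.89. VAV3 (−0.47) and the NF-kB paracaspase MALT1 (−0.39) fell. Of 23 surface antigens 9 rose, among them CD24 (0.76), CD37 (0.73) and CD40 (0.66), and 2 fell, SLAMF1 and CD48. Of 20 regulators of germinal-centre and plasma cells 6 rose, with BACH2 as described, XBP1 (0.56), FOXP1 (0.50), POU2AF1 (0.43) and ETS1 (0.25), and LMO2 fell. Of 14 genes of HLA class II presentation 5 rose, including the master regulator CIITA (0.36), and none fell.

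Signalling readouts further down were mixed. Of 23 NF-kB subunits and targets 3 rose (LTB, CD40 and CFLAR) and 2 fell (TNF and BCL2A1), with a median of −0.04. Of 17 immediate-early genes KLF10 (−0.68), IER2 (−0.47) and JUNB (−0.38) fell and none rose, and of 9 ERK feedback genes only DUSP7 passed, with −0.41. Of 19 cytokine receptor and JAK-STAT genes 4 rose, among them PIM2 (0.79) and IL10RA (0.72), and 3 fell. Of 20 interferon-stimulated genes 7 rose, with ISG20 and IRF7 at 0.89 each, and 2 fell, among them PARP9 (−0.81).

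In the BCL2 family, 5 of 15 genes rose and 2 fell. HRK, a BH3-only activator of apoptosis, went from 0.885, 1.23 and 0.871 CPM with AZD to 3.91, 4.91 and 3.05 CPM with Ento+AZD (2.0 ± 0.30, adjusted p = 0.00181). BBC3 (PUMA) rose by 0.93 ± 0.22 (adjusted p = 0.0175), PMAIP1 (NOXA) by 0.52, and the pro-survival members BCL2L2 and BCL2 by 1.07 and 0.33. The pro-survival BCL2A1 (−0.63) and the pro-apoptotic BID (−0.37) fell. AZD had lowered BBC3 from 6.72, 6.32 and 7.98 CPM to 4.59, 2.46 and 2.66 CPM, and Ento+AZD lay at 6.46, 7.48 and 4.57 CPM.

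Of 21 targets of the stress factor ATF4, 9 fell and ATF5 rose (0.61). DDIT4 was the only DEG, and the cystine importer SLC7A11 fell by 0.96 on the log2 scale (adjusted p = 0.00951), followed by SHMT2, PSAT1 and MTHFD2 of serine and folate metabolism with −0.51 to −0.46. Of 31 genes of cholesterol and fatty acid synthesis 3 fell, ELOVL6 with −1.15 being the DEG, of 29 genes of ribosome biogenesis FBL and DDX10 fell, and of 22 lysosome and autophagy genes CTSA rose. The shares of the last 2 lists are near those of all genes and are no result about these lists. Of 14 BET proteins and regulators of the elongation factor P-TEFb, AFF1 (1.02) and HEXIM2 (0.69) rose. HEXIM1, a transcript that rises under BET inhibition, was raised by AZD by 0.44 (adjusted p = 0.00771) and stood at 38.4, 34 and 39.1 CPM with AZD and 34.8, 39.9 and 39.3 CPM with Ento+AZD, a difference of 0.03 ± 0.10 (adjusted p = 0.866).

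**Figure D4:**
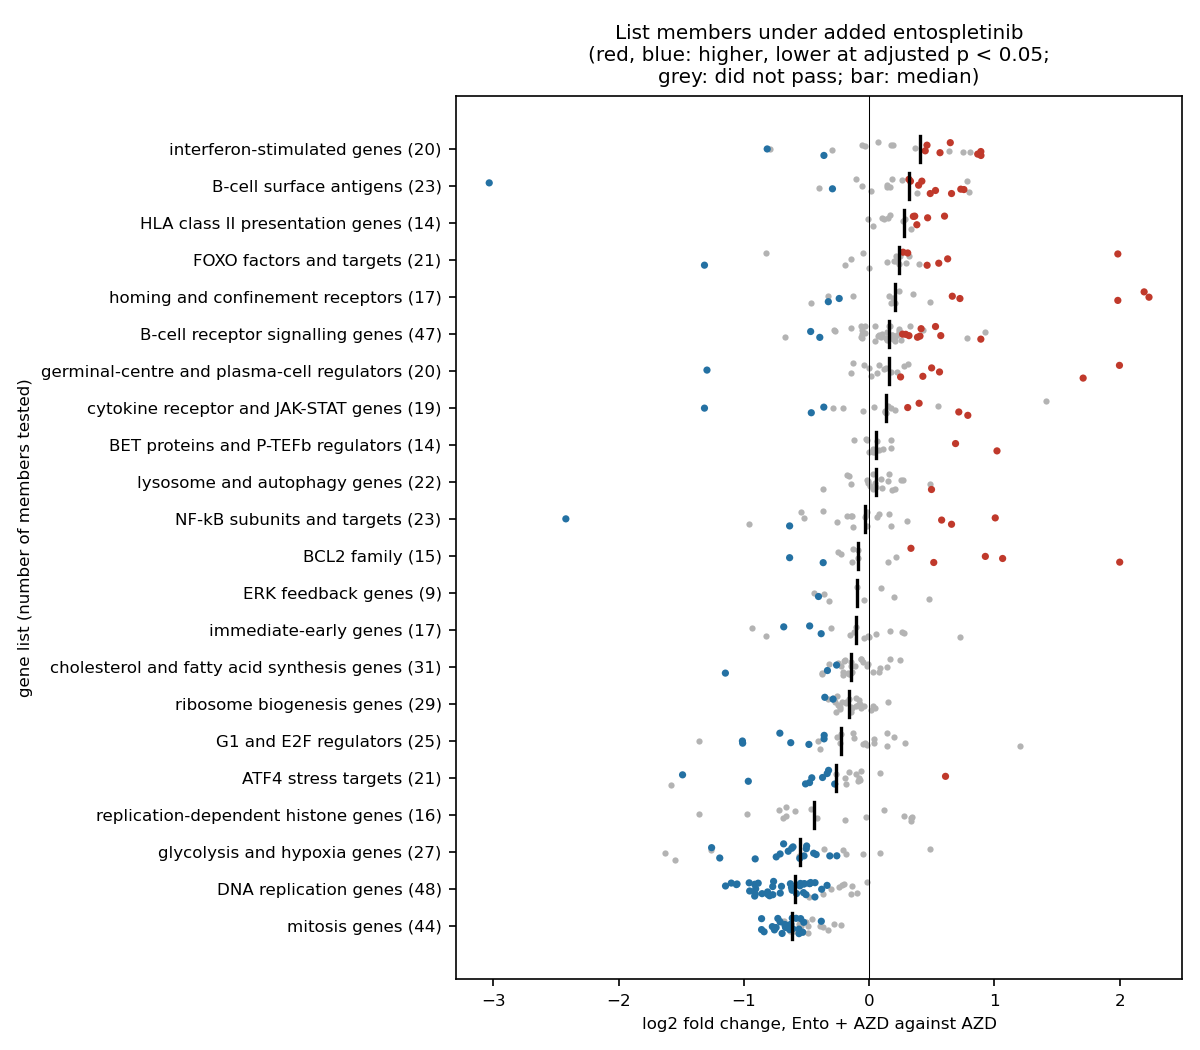
Log2 fold change of Ento+AZD against AZD for the tested members of 22 gene lists, 1 point per gene, red or blue where the gene was higher or lower at an adjusted p under 0.05 and grey otherwise, with a bar at the median of each list. The replication, mitosis and glycolysis lists lie left of 0 with medians of −0.59, −0.62 and −0.55, and single genes such as GPR183 and S1PR4 lie far to the right of their lists.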

How the data were processed

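Polyadenylated RNA of 12 SU-DHL-4 libraries, 3 in each of 4 groups, was sequenced as single reads. The authors trimmed the reads, aligned them to GRCh38.p13 and counted them per gene with Rsubread. The deposited values used are raw counts without normalization, and the strand setting is not given in the sources used here. A second table of log2 values that the authors normalized was not used. Counts were filtered with filterByExpr (minimum count 10, minimum total 15), scaled by TMM and fitted with edgeR 4.0.16 in R 4.3.3 in one model of all 12 libraries, with treatment group and replicate number as terms. Contrasts were tested by the quasi-likelihood F-test, with p-values adjusted by Benjamini-Hochberg over all tested genes. A gene counted as a DEG at an adjusted p under 0.05 with a change beyond 2-fold. The SE is the log2 change over the root of its F value. DESeq2 1.42.0 was an alternative, and the test was tried on simulated counts before use.

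Replicate numbers come from the sample titles. Deviations from the group means correlated at 0.241 to 0.770 between libraries of the same number (18 pairs) and at −0.696 to 0.378 otherwise (36 pairs), so the numbers were taken to pair the libraries. The study describes its samples in general as biologically independent, but the labels do not say which cultures these replicates came from, and p-values measure the spread between these samples. Libraries of 1 group differed by more than sampling noise (chi-square per degree of freedom 8.21 to 48.5). The gene lists, and the rule for named genes, were chosen with earlier results of these data known. The rule took, at a mean of at least 1 CPM, the 10 DEGs with the largest rise and the 10 with the largest fall, the 5 with the smallest p in each direction, up to 12 reversed and 6 furthered AZD effects in each direction, 5 genes by interaction p, and list members. Some genes and 1 list it covers are not reported here. Gene positions are from GENCODE v44, promoter windows from RefSeq.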

Additional observations from a re-analysis of the deposited data

How the results depend on the processing

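The replicate block decided how many genes passed. Without the block, which leaves the pairing by replicate number out of the model, Ento+AZD against AZD gave 9 DEGs higher and 2 lower, and 14 genes higher and 3 lower at the adjusted p. In that fit 3 reversed AZD effects were raised and 0 lowered as DEGs, 4 and 0 at the adjusted p, and 0 furthered effects were higher and 0 lower. It called 0 replication, 0 mitosis and 0 glycolysis genes, and the calls of 44 of 52 named genes were lost, with no change of sign. BACH2 and AFF3 were among those lost, while AIM2, KANK2 and SLC30A4 still passed. The cause of the losses was not tested. No gene passed the interaction with or without the block in edgeR.

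With DESeq2 the reversed DEGs lowered by added entospletinib numbered 3, and 8 genes passed the interaction. Without a filter on low counts there were 120 DEGs lower, 61 and 13 reversed DEGs raised and lowered, 302 and 109 at the adjusted p, 20 furthered DEGs lower, 278 genes in the interaction and 42 mitosis genes. That fit estimated unlimited prior degrees of freedom, so that a gene's own spread did not enter its test, and its adjusted p-values (down to 5.52e-80, against 8.83e-07 as reported) are not comparable with the others. With only the AZD and Ento+AZD libraries 43 mitosis genes fell. A fold threshold of 1.5 gave 495 DEGs higher and 313 lower, 96 and 13 reversed, and 40 and 119 furthered higher and lower. The median of the ERK feedback genes was −0.209 with only those 6 libraries and −0.311 at a mean of at least 1 CPM, that of interferon-stimulated genes 0.198 at that mean, and that of histone genes −0.034 without the filter and, with a change of sign, 0.288 at that mean. RLE size factors moved no count by over 1.5 times.

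Leaving out 1 library, or 1 replicate number in all groups, gave 58 to 239 DEGs higher and 20 to 109 lower, and 139 to 1246 genes higher and 68 to 1367 lower at the adjusted p. Reversed DEGs raised and lowered ranged from 12 to 51 and from 2 to 7, those at the adjusted p from 37 to 265 and from 9 to 134, furthered DEGs higher and lower from 0 to 14 and from 3 to 15, and the interaction from 0 to 213. The lists counted 1 to 40 replication, 0 to 42 mitosis and 7 to 19 glycolysis genes. Most of the lowest counts came without replicate 1, which left 2 libraries per group. The sign of all 282 DEGs held in each of the 12 fits without 1 library, which their selection beyond 2-fold from these libraries makes likely. Of the 282, between 132 (without AZD replicate 1) and 280 (without DMSO replicate 2) were still DEGs in those fits. List medians ranged from −0.214 to −0.066 for immediate-early genes, −0.329 to 0.056 for ERK feedback, 0.163 to 0.316 for homing receptors, −0.266 to −0.141 for G1 and E2F regulators, 0.278 to 0.452 for interferon-stimulated genes, 0.035 to 0.106 for BET and P-TEFb genes and −0.585 to −0.227 for histone genes. That of ribosome biogenesis ranged from −0.24 to 0.008, the change of sign coming without Ento+AZD replicate 2.

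Counting error limits genes under about 1 CPM, and 83 of the 282 DEGs lie below it. With 3 libraries per group, a gene that missed the threshold was not shown to be unchanged.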
